A study of Mus musculus with 4 samples.

Results

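The heat shock chaperone genes followed here were measured in spleen MDSCs cultured with or without EGCG: Hspa1a, Hspa1b, Hsph1, Dnajb1, Hsp90aa1, Hsp90ab1, Hspa8, Hspb1, Hspd1 and Hspe1. These 10 genes, picked by symbol but with earlier results of these data known, were all found among the 53465 genes of the count table. MDSCs, myeloid-derived suppressor cells, are immature myeloid cells that build up in tumor-bearing hosts. They came here from the spleens of male BALB/c mice that were 6 weeks old when injected with 4T1 tumor cells, a transplantable mammary carcinoma of that strain, and were enriched with magnetic beads against Gr-1, an epitope of Ly-6G and Ly-6C. The labels give day 21 after tumor cell injection for the collection of spleens, whereas the methods of the study give a shorter interval. The control group (replicates 1 and 2) was kept for 6 h in control medium, and the EGCG treatment group (replicates 1 and 2) spent the same 6 h with EGCG, a polyphenol of green tea, at 5 μg/mL. At this concentration and time the study reports lower viability and more apoptosis of MDSCs. The part of this in the values below was not tested. The sources used here leave unsaid whether both libraries of a group stem from different mice or only from different wells, and whether mice were pooled, so the p values measure the spread between these libraries only, which may be technical.

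Heat shock proteins are molecular chaperones: they hold, fold and refold other proteins. HSP70 proteins bind exposed stretches of unfolded proteins in cycles of ATP hydrolysis, J-domain proteins such as Dnajb1 bring clients to them and start hydrolysis, and HSP110 proteins such as Hsph1 exchange the nucleotide. HSP90 receives many of these clients, including kinases and receptors, and in mitochondria Hspd1 and its lid Hspe1 form a folding chamber. When unfolded proteins accumulate, the transcription factor HSF1 forms trimers, binds heat shock elements in DNA and switches on inducible members such as Hspa1a and Hspa1b, so that the RNA of these genes is often read as a sign of proteotoxic stress.

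The promoters are shown first, because heat shock elements tie several of these genes to HSF1. A heat shock element is a row of 5-base units in which GAA alternates with TTC. Rows of at least 3 units were searched as GAANNTTCNNGAA and TTCNNGAANNTTC and pairs of units as GAANNTTC and TTCNNGAA, which covers both strands, and every row of 3 also holds pairs. Only exact units were counted, so an element with a mismatched base in a unit was missed or shortened. RefSeq windows (GRCm38.p6, from 250 bases before to 50 bases after an annotated start) matched 7 of the 10 genes with 10 windows, and Hsp90aa1, Hsp90ab1 and Hspa8 had none. A row of 3 units occurred in 4 of the 10 windows, which belong to 3 genes (Hspd1, Hspe1 and Hsph1), and in 0.603% of all 32851 windows. A pair of units occurred in 7 of the 10 windows, which belong to all of the 7 genes except Dnajb1, and in 15.1% of all windows. Both windows of Hsph1 overlap and hold the same elements, and a window of Hspd1 overlaps that of Hspe1, so these counts are not independent.

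Hspe1 and Hspd1 lie head to head on chromosome 1, and their windows hold one and the same element of 4 units, read from opposite strands (chr1:55088059-55088076, GRCm38.p6). It lies from 89 to 72 bases before the start of Hspe1. The lines below show it within chr1:55088053-55088082, on the plus strand for Hspe1 and the minus strand for Hspd1, and capitals mark the units.
Hspe1: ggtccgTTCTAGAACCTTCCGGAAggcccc
Hspd1: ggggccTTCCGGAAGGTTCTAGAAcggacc
The element of Hsph1 with 3 units (chr5:149636288-149636300, minus strand) lies just downstream of both annotated starts.
Hsph1: TTCTGGAAAGTTC
The windows of Hspa1a and Hspa1b on chromosome 17 are identical at 296 of 300 bases. The stretch shown for Hspa1a (chr17:34972213-34972300, minus strand) is the same in Hspa1b (chr17:34959295-34959382, minus strand), and each holds 1 pair of exact units. The bases gaa and tgc precede this pair at the same spacing, and since tgc is not an exact TTC they were not counted.
Hspa1a: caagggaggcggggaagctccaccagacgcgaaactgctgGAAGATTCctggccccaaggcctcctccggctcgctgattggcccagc
The window of Hspb1 (stretch at chr5:135887762-135887869, plus strand) holds 2 separate pairs.
Hspb1: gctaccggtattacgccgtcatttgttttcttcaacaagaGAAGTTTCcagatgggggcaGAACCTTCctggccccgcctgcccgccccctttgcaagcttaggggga
These matches describe letters in the windows and do not show that HSF1 was bound there. A window without a match, such as those of Dnajb1, may still hold an element with inexact units.

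The libraries held between 17767318 and 18390385 counts on genes, and 14682 genes had enough counts to be tested. EGCG was compared with control over all of these genes with the quasi-likelihood test of edgeR, and a gene was called at a Benjamini-Hochberg adjusted p under 0.05. Levels are given as CPM (counts relative to the library size, with TMM factors) and, between genes, as RPKM (CPM per kilobase of exon). Neutrophil markers (12 of 12 tested, S100a9 the highest) had summed levels of 59540 and 71030 CPM with control medium against 79730 and 70420 CPM with EGCG, and monocyte markers (7 of 7 tested) summed to between 1475 and 1547 CPM. B cell markers summed to between 349.1 and 396.9 CPM in the libraries. Summed macrophage markers (8 of 8 tested) were at 394 and 390 CPM with control medium against 306 and 326 CPM with EGCG. Summed endothelial (113.9 to 125.9 against 93.9 to 98.6 CPM), basophil and eosinophil (985.2 to 1112 against 821.3 to 956.1 CPM) and platelet markers (36.3 to 39.3 against 31.97 to 32.4 CPM) were also lower with EGCG in both libraries, and summed T cell markers (98.1 to 109.4 against 111.6 to 115.7 CPM) were higher. The groups overlapped for summed erythroid (153.7 to 193.8 against 183.1 to 205.8 CPM), dendritic cell (10.8 to 12.3 against 10.8 to 11.6 CPM) and NK cell markers (2.57 to 2.74 against 2.04 to 2.63 CPM). No gene of these lists passed the threshold. Among single tested genes, both EGCG libraries lay above both control libraries in 21.5% and below them in 21.2%. In such bulk samples, fewer cells of a type and less RNA per cell cannot be told apart, and the part of these cells in the values below was not tested.

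No difference between EGCG-treated and control MDSCs passed the test in any of the heat shock chaperone genes. Of the 9 tested genes none was called, with 0 at an adjusted p under 0.05 and 0 at an unadjusted p under 0.05 by edgeR, and by DESeq2 0 of the 9 at an unadjusted p under 0.05 and 0 of the 5 that received an adjusted p. DESeq2 gave no adjusted p to Hspa1a, Hspa1b, Hsph1 and Hspe1. Among all tested genes, 0.0136% were called higher and 0.136% lower with EGCG, and 5.22% were higher and 7.02% lower at an unadjusted p under 0.05. Log2 fold changes ran from -0.16 (Hspa1a) to 0.14 (Dnajb1), with 5 genes above and 4 below zero. Their median was 0.05, beside 0.0031 over all tested genes. The 95% intervals from the fit lay within a 2-fold change in either direction for all 9 tested genes, and within a 1.5-fold change for 7 of them. The remaining gene, Hspb1, had too few counts to be tested.

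**Figure D1:**
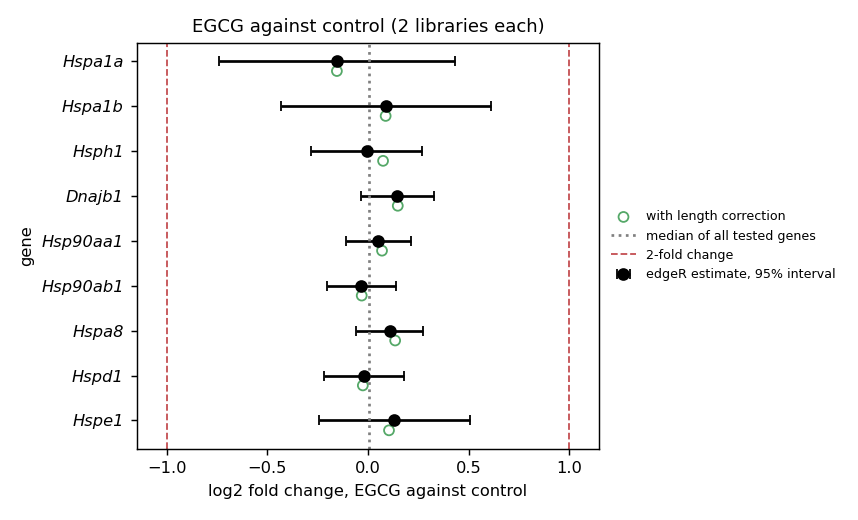
Log2 fold change of the 9 tested heat shock chaperone genes, EGCG against control, with 2 libraries in each group. Black points and bars are edgeR estimates with 95% intervals, open green circles are estimates with a correction for gene length, the dotted line is the median of all tested genes and the dashed red lines mark a 2-fold change, which no bar reaches.

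The inducible HSP70 genes had few counts in both groups. Hspa1a (ENSMUSG00000091971, chr17:34969190-34972156 of GRCm38) had 47 and 38 counts with control medium against 40 and 36 with EGCG, which is 2.57 and 2.13 CPM against 2.21 and 2.02 CPM. Control replicate 1 was the highest, and the groups overlapped. Its log2 fold change was -0.16 (standard error 0.27, fold interval 0.598 to 1.35), and it ranged from -0.28 without control replicate 2 to -0.0065 without control replicate 1. Hspa1b (ENSMUSG00000090877, chr17:34956436-34959238) had 48 and 51 counts with control medium against 55 and 50 with EGCG, or 2.63 and 2.85 CPM against 3.03 and 2.80 CPM. Here EGCG replicate 1 was the highest and control replicate 1 the lowest, again with overlapping groups. The log2 fold change of Hspa1b was 0.09 (standard error 0.24, fold interval 0.742 to 1.53), and it was lowest with EGCG replicate 1 left out (0.03) and highest with control replicate 2 left out (0.15).
Both genes encode nearly the same protein, and 70.1% of the 31-base words in transcripts of Hspa1a and 68.1% of those of Hspa1b also occur in transcripts of other genes, most of them in each other. Reads from such sequence may not be assigned to either gene, so their counts and levels are uncertain. Hspa1a also overlaps Gm20481, a gene of the opposite strand with 0 counts in all 4 libraries, over 2225 bases, and the counting ignored strand. Summed as 1 gene, the pair stood at 5.09 ± 0.157 CPM (SD, n = 2) in the control group and 5.03 ± 0.30 CPM (SD, n = 2) in the EGCG group. The log2 fold change of the sum was -0.02 (standard error 0.19, fold interval 0.746 to 1.31).

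Hspa8, the constitutive HSP70 that folds new proteins and uncoats clathrin vesicles, had more counts than these. Hspa8 (ENSMUSG00000015656, chr9:40800984-40810087) was at 155.0 and 146.3 CPM with control medium against 155.2 and 169.5 CPM with EGCG. EGCG replicate 2 stood above the other libraries, and control replicate 1 and EGCG replicate 1 were nearly equal. EGCG minus control was 0.11 on the log2 scale (standard error 0.08, fold interval 0.960 to 1.21, adjusted p = 0.622 by edgeR). Leaving out EGCG replicate 2 brought this to 0.04, and leaving out EGCG replicate 1 brought it to 0.17. Transcripts of other genes hold 44.8% of the 31-base words of Hspa8, and its introns hold the small nucleolar RNAs Snord14c, Snord14d and Snord14e.

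Among the 9 tested genes, Dnajb1 had the smallest p value. Dnajb1 (ENSMUSG00000005483, chr8:83608193-83612653), the J-domain protein that drives the HSP70 cycle and is induced with it by heat, was at 51.5 and 54.95 CPM with control medium against 57.25 and 60.5 CPM with EGCG. Both EGCG libraries were above both control libraries. It was the only tested gene in which the distance between the replicates of a group was smaller than the difference between the groups, for both groups. The log2 fold change was 0.14 (standard error 0.08, fold interval 0.975 to 1.25), with adjusted p = 0.530 by edgeR. Only 0.444% of its 31-base words occur in transcripts of other genes.
Hsph1 (ENSMUSG00000029657, chr5:149614287-149636376), the HSP110 nucleotide exchange factor, was at 15.7 and 14.4 CPM with control medium against 13.7 and 16.3 CPM with EGCG. The EGCG libraries were the lowest and the highest of the 4, with the control libraries between them. Its log2 fold change was -0.0069 (standard error 0.13, fold interval 0.822 to 1.21), and it became 0.11 without EGCG replicate 1, -0.14 without EGCG replicate 2 and 0.07 with a correction for gene length. Hsph1 shared no 31-base word with transcripts of other genes.

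**Figure D2:**
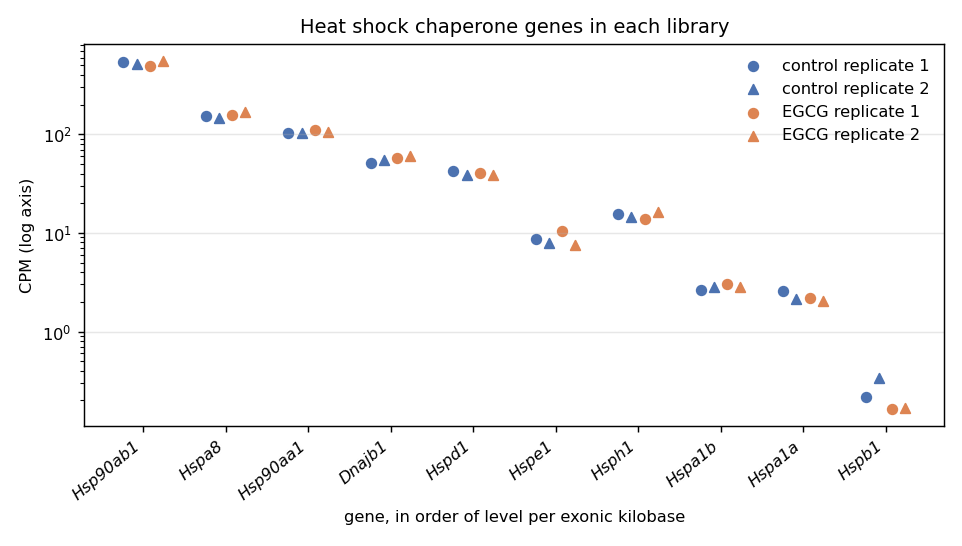
CPM of each of the 10 genes in each library, on a log axis, with genes ordered by level per exonic kilobase. Blue marks are control and orange marks EGCG libraries, circles are replicate 1 and triangles replicate 2. Hspa1a (up to 2.57 CPM) and Hspa1b (from 2.63 CPM) nearly meet, and the libraries of Hspb1 run from 0.17 to 0.34 CPM.

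The cytosolic HSP90 pair held most of the counts of the family. Hsp90ab1 (ENSMUSG00000023944, chr17:45567775-45573271), the constitutive HSP90 beta, was at 546.9 and 519.1 CPM with control medium against 492.7 and 549.6 CPM with EGCG. The EGCG libraries again enclosed the control libraries. For Hsp90ab1 the log2 fold change was -0.03 (standard error 0.08, fold interval 0.868 to 1.10), and it changed sign when control replicate 1 (0.0091) or EGCG replicate 1 (0.04) was left out. Hsp90aa1 (ENSMUSG00000021270, chr12:110690605-110702728), the more inducible HSP90 alpha, was at 103.6 CPM in both control libraries and at 110.2 and 104.4 CPM in the EGCG libraries. Both EGCG libraries were above the control libraries, EGCG replicate 2 by a small margin. For Hsp90aa1, EGCG minus control was 0.05 on the log2 scale (standard error 0.07, fold interval 0.927 to 1.16). This became 0.01 without EGCG replicate 1 and 0.09 without EGCG replicate 2. Of the 31-base words of Hsp90aa1, 51.5% also occur in transcripts of other genes, against 13.2% for Hsp90ab1.

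The mitochondrial chaperonin genes showed no common direction. Hspd1 (ENSMUSG00000025980, chr1:55077835-55088243), which encodes HSP60, was at 42.4 and 38.5 CPM with control medium against 40.7 and 39.0 CPM with EGCG. The EGCG libraries lay between the control libraries. For Hspd1 this came to a log2 fold change of -0.02 (SE 0.09, fold interval 0.858 to 1.13), and it turned to 0.05 with control replicate 1 left out and to 0.0070 with EGCG replicate 2 left out. Hspe1 (ENSMUSG00000073676, chr1:55088132-55091307), which encodes the HSP10 lid of the chamber, was at 8.65 and 7.89 CPM with control medium against 10.5 and 7.61 CPM with EGCG. EGCG replicate 1 was the highest and EGCG replicate 2 the lowest. For Hspe1 the log2 fold change was 0.13 (standard error 0.18, fold interval 0.843 to 1.42), and it was -0.12 without EGCG replicate 1. Both genes overlap by 112 bases on opposite strands, and the counting ignored strand, so reads from that stretch could not be told apart. Words shared with other transcripts made up 53.1% of Hspd1 and 30.5% of Hspe1.

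Hspb1 (ENSMUSG00000004951, chr5:135887919-135889563), the small heat shock protein HSP25 that keeps unfolded proteins from clumping, had 4 and 6 counts with control medium against 3 and 3 counts with EGCG. All of these counts were near the floor of 3 counts per library. The ratio of EGCG to control was 0.602 with an exact binomial 95% interval of 0.180 to 1.83, which covers counting error only. A difference in Hspb1 inside this interval was not detectable at this depth, and 55.4% of its 31-base words occur in transcripts of other genes.

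In 8 of the 9 tested genes, the log2 distance between the replicates of at least one group was larger than the difference between the group means, as it was in 10341 of all 14682 tested genes. In Dnajb1, Hsp90aa1 and Hspa8, 3 of the 9, both EGCG libraries lay above both control libraries, and in 0 of the 9 both lay below. Over all tested genes, 21.5% lay apart in this way with EGCG higher and 21.2% with EGCG lower, so that 3 of 9 is near the background. Centred on the mean of each gene, log2 CPM ran from -0.17 (Hspe1 in EGCG replicate 2) to 0.28 (Hspe1 in EGCG replicate 1), so the lowest and the highest value were in replicates of one group. Dnajb1, Hspa8, Hsph1 and Hsp90ab1 were highest in EGCG replicate 2, at 0.11, 0.12, 0.12 and 0.06. Of 8204 other genes with a mean of at least 10 CPM, those closest to the median centred profile of the 9 genes over the 4 libraries were Zbtb7b, Aaas and Actr5, with root mean square differences of 0.0117, 0.0119 and 0.0121 on the log2 scale. This median profile was itself nearly flat, from -0.05 in control replicate 2 to 0.02 in EGCG replicate 1.

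**Figure D3:**
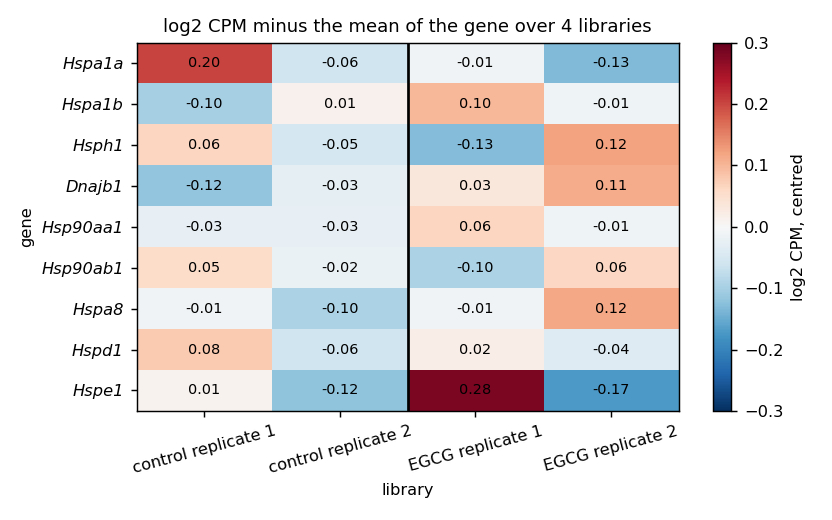
Log2 CPM of the 9 tested genes in each library, minus the mean of the gene over the 4 libraries, with red above and blue below that mean. The vertical line separates control from EGCG libraries; the largest contrast lies within a group, for Hspe1 in the EGCG libraries (0.28 and -0.17).

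Together, the 10 genes took 0.0955% (Wilson 95% interval 0.0941 to 0.0969) of the counts in control replicate 1 and 0.0885% (0.0871 to 0.0899) in control replicate 2. In the EGCG libraries the share was 0.0873% (0.0860 to 0.0887) in replicate 1 and 0.0940% (0.0926 to 0.0954) in replicate 2. These intervals cover counting error only, and the shares of both groups overlap. Hsp90ab1 alone took between 55.6% and 58.9% of the counts of the 10 genes.

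Per kilobase of exon, levels spanned a range of 816-fold between Hsp90ab1 and Hspb1. Averaged over the 4 libraries, Hsp90ab1 stood at 175.8 ± 8.92 RPKM (SD), followed by Hspa8 at 36.4 ± 2.23, Hsp90aa1 at 26.8 ± 0.813, Dnajb1 at 17.5 ± 1.18 and Hspd1 at 15.2 ± 0.665 RPKM. Below them came Hspe1 at 5.88 ± 0.875, Hsph1 at 2.07 ± 0.162, Hspa1b at 1.01 ± 0.0595, Hspa1a at 0.752 ± 0.0815 and Hspb1 at 0.215 ± 0.0773 RPKM. The 4 libraries of each gene did not overlap with those of its neighbor in this order, Dnajb1 and Hspd1 being the closest in relative terms. Reads lost to similar genes can lower these levels by an unknown amount, and Hspa1a and Hspa1b share the largest part of their sequence.
Within each library, paralogs and partners could be set against each other. The RPKM of Hspa1a and Hspa1b together was 0.0501 and 0.0510 of that of Hspa8 with control medium against 0.0506 and 0.0426 with EGCG. Hsp90aa1 was at 0.145 and 0.152 of Hsp90ab1 with control medium against 0.171 and 0.145 with EGCG. The ratio of Hspe1 to Hspd1 was 0.366 and 0.367 with control medium against 0.462 and 0.350 with EGCG. Dnajb1 was at 0.446 and 0.504 of Hspa8 with control medium against 0.495 and 0.479 with EGCG, and Hsph1 at 0.0598 and 0.0584 of Hspa8 with control medium against 0.0522 and 0.0569 with EGCG. The EGCG libraries were farther apart than the control libraries in 4 of these 5 ratios, all except that of Dnajb1 to Hspa8, and the groups overlapped in all but the ratio of Hsph1 to Hspa8, which was lower in both EGCG libraries.

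The rest of the chaperone system was read from lists of 101 other genes, of which 93 were tested. None was called by edgeR at an adjusted p under 0.05 in either direction, and DESeq2 called none of the 62 to which it gave an adjusted p (31 had none). At an unadjusted p under 0.05, 9 of the 93 were higher and 4 lower by edgeR, beside 5.22% and 7.02% of all tested genes, and by DESeq2 4 of the 93 were below this p, as were 922 of all 14682 genes. The median log2 fold change of the 93 was -0.0044. Without TMM factors, that is with scaling by library size alone, Hyou1 was called (adjusted p = 0.0260 by edgeR).

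**Figure D4:**
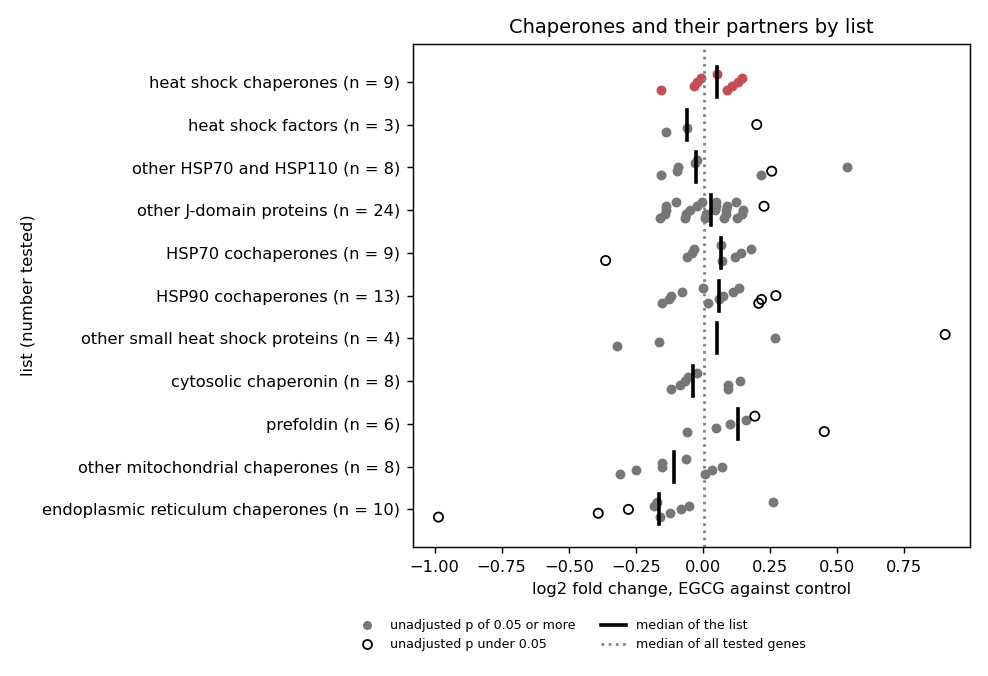
Log2 fold change of each tested gene, EGCG against control, by list; the 9 tested heat shock chaperones are the red points at the top. Black bars are medians of lists, open circles are genes with an unadjusted p under 0.05, and the dotted line is the median of all tested genes; the lists of heat shock genes and cochaperones lie around it.

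Of the heat shock factors, Hsf1, the master regulator of the response, was at 22.4 and 20.8 CPM with control medium against 20.02 and 19.3 CPM with EGCG. Both EGCG libraries were below the control libraries, and the log2 fold change was -0.14 (standard error 0.11, adjusted p = 0.662 by edgeR). It came to -0.08 without control replicate 1 and to -0.06 with the correction for gene length. Hsf2, a related factor, stood at 5.03 ± 0.628 CPM in the control group and 4.83 ± 0.420 CPM in the EGCG group (SD, n = 2), and its log2 fold change of -0.06 became 0.06 with the correction for gene length. Hsbp1, which binds the trimers of HSF1 and restrains them, was at 66.6 and 71.1 CPM with control medium against 78.5 and 79.8 CPM with EGCG, a log2 fold change of 0.20 (standard error 0.08, adjusted p = 0.335 by edgeR). Hsf4 had too few counts to be tested.

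Bag3, a cochaperone of HSP70 that is itself a classical target of HSF1, was at 11.5 and 10.9 CPM with control medium against 9.15 and 8.23 CPM with EGCG. Both EGCG libraries were below both control libraries, and the log2 fold change was -0.36 (standard error 0.15, adjusted p = 0.341 by edgeR). This value is opposite in sign to that of Dnajb1, another target of the factor, and neither passed the threshold. Of 9 tested HSP70 cochaperones, 1 was below an unadjusted p of 0.05 by edgeR, namely Bag3. Over all tested genes, 7.02% were lower and 5.22% higher at this p, so 1 of 9 is near the background. Stip1, which hands clients from HSP70 to HSP90, had a log2 fold change of -0.06 (standard error 0.08, from -0.09 to -0.02 with single libraries left out), and Stub1, the ubiquitin ligase CHIP, 0.18 (standard error 0.11). Stub1 ran from 0.06 without control replicate 2 to 0.31 without control replicate 1.
For the other HSP70 and HSP110 genes, Hspa4 (an HSP110 paralog of Hsph1) had a log2 fold change of -0.09 (standard error 0.08) and Hspa9 (the mitochondrial HSP70) -0.03 (standard error 0.09). Hspa4 came to -0.05 without control replicate 1 or with the correction for gene length. Hspa13 had -0.16, and Hspa14, a ribosome-associated HSP70, had 0.26 (standard error 0.10, adjusted p = 0.332 by edgeR). Hspa13 came to -0.09 without EGCG replicate 2 and to -0.08 with the length correction, and Hspa14 came to 0.16 without EGCG replicate 1. The J-domain protein Dnaja1 had 0.05 (0.15 with the length correction), Dnajb9 0.23 and Dnajc3 -0.16. Only 1 of 24 such genes (Dnajb9, higher with EGCG) was below an unadjusted p of 0.05 by edgeR. Over all tested genes, 5.22% were higher and 7.02% lower at this p, so 1 of 24 is not above the background.

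Among 13 HSP90 cochaperones, 9 were above and 4 below zero, and 3 were higher at an unadjusted p under 0.05 (5.22% of all tested genes). Ptges3, the p23 cochaperone that holds the closed form of HSP90, was at 33.1 and 34.98 CPM with control medium against 37.8 and 44.45 CPM with EGCG, a log2 fold change of 0.27 (standard error 0.10, adjusted p = 0.307 by edgeR). Cacybp, also among these 3 and named after its value was seen, had a log2 fold change of 0.22 (standard error 0.09). Ahsa1, which stimulates the ATPase of HSP90, had 0.14 (standard error 0.08). With single libraries left out, Ptges3 ran from 0.15 (without EGCG replicate 2) to 0.38 (without EGCG replicate 1) and Ahsa1 from 0.07 (without control replicate 1) to 0.20 (without control replicate 2).

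Of the cytosolic chaperonin, which folds actin and tubulin, 3 subunits were above and 5 below zero. Their log2 fold changes ran from -0.12 (Tcp1) to 0.14 (Cct7). None was below an unadjusted p of 0.05 by edgeR, beside 5.22% higher and 7.02% lower over all tested genes. Cct7 came to 0.09 without EGCG replicate 2 and to 0.21 with the length correction. Prefoldin, which delivers clients to that chaperonin, had 5 of 6 subunits above zero (7428 of all 14682 genes were), and the 2 with an unadjusted p under 0.05, a level that 5.22% of all tested genes reached with EGCG higher, were Pfdn4 (0.45, standard error 0.16) and Vbp1 (0.19, standard error 0.09), with adjusted p = 0.289 and adjusted p = 0.394 by edgeR. Other mitochondrial chaperones had a median of -0.11, with Clpb at -0.31 (-0.20 without control replicate 1) and Grpel2 at -0.25 (-0.14 without EGCG replicate 2), and the correction for gene length brought them to -0.19 and -0.18. Among other small heat shock proteins, 4 of 9 were tested, and the lens and muscle chaperone Cryab had -0.32 (standard error 0.26), or -0.19 without control replicate 2. Hspb11, which despite its name belongs to the intraflagellar transport machinery, had 20 and 18 counts with control medium against 41 and 30 with EGCG, a log2 fold change of 0.90 (standard error 0.34, adjusted p = 0.315 by edgeR).

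The chaperones of the endoplasmic reticulum are the counterparts of the heat shock genes in the secretory pathway and answer to the unfolded protein response. Of the 10 such genes in this list, 9 were below zero (7254 of all 14682 genes were), and in 7 both EGCG libraries lay below both control libraries (21.2% of all tested genes). J-domain proteins of this compartment were listed with the other J-domain proteins and went both ways. Among them, Dnajb9 (0.23), Dnajb11 (0.08) and Dnajc10 (0.05) were above zero, and Dnajc3 (-0.16) and Dnajc1 (-0.14) below. Their median log2 fold change was -0.17, and 3 of the 10 were lower at an unadjusted p under 0.05 (7.02% of all tested genes): Hyou1, Pdia4 and, with under 10 counts in a library and named after its value was seen, Serpinh1. Hyou1, the HSP110 of this compartment, was at 90.6 and 77.9 CPM with control medium against 61.4 and 67.2 CPM with EGCG, a log2 fold change of -0.39 (standard error 0.09, adjusted p = 0.107 by edgeR). Hyou1 passed the threshold without control replicate 2 (-0.49) or without EGCG replicate 2 (-0.46), and missed it without control replicate 1 (-0.27, adjusted p = 0.357 by edgeR) or without EGCG replicate 1 (-0.33, adjusted p = 0.207 by edgeR). Each of these fits leaves 1 library in a group, which is assumed to vary like the other group. Hspa5 (BiP, the HSP70 of the compartment) had -0.17 (standard error 0.08), Hsp90b1 (its HSP90) -0.12 (standard error 0.07) and the disulfide isomerase Pdia4 -0.28 (standard error 0.10). Hspa5 came to -0.07 without EGCG replicate 1 and to -0.27 without EGCG replicate 2, and Pdia4 to -0.17 without control replicate 1. Beside them stood the cytosolic counterparts Hspa8 at 0.11, Hsp90ab1 at -0.03 and Hsph1 at -0.0069, and the difference between the compartments was not tested.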

How the data were processed

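RNA was sequenced from 4 libraries, 2 of control and 2 of EGCG-treated MDSCs, grouped by their labels. The submitters' processing notes name STAR 2.6.0c, featureCounts 1.6.2, GRCm38 and Ensembl release 91. The authors counted reads per gene without regard to strand, and the deposited values are raw counts, neither scaled nor filtered; 0 further columns were present. Genes were filtered with edgeR's filterByExpr (minimum count of 10) and scaled by TMM, and edgeR 4.0.16 compared the groups (quasi-likelihood test, legacy form, no block, 14682 genes). The standard error is the size of the log2 fold change divided by the square root of F, and 95% intervals use the moderated degrees of freedom. Positions, exon lengths and shared words of 31 bases were taken from the GRCm38 annotation GENCODE M21, where 53360 of 53465 identifiers were found. Centred log2 CPM used a prior count of 2. The tests were first tested on simulated data.
The genes and lists were chosen with earlier results of these data known. Besides the 10 genes, the text names fixed partners, any other chaperone gene past the threshold, in each list the 2 genes with the smallest p and at least 10 counts in every library, and the 3 genes of closest profile; 1 gene that this rule names is not reported here. Alternatives were other filters, scaling methods and fits, DESeq2 1.42.0, a length correction (loess, span of 0.4), a replicate block, Hspa1a and Hspa1b summed, and leaving out each library. With 2 libraries against 2, an exact permutation test cannot go below 0.333. R 4.3.3, Python 3.11.15, pandas 2.3.3 and SciPy 1.17.1 were used.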

Additional observations from a re-analysis of the deposited data

How the results depend on the processing

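None of the heat shock chaperone genes was called under any of 10 alternatives (1 of them, the adding of pseudogenes, chosen after seeing the data) or with any of 4 libraries left out, where an adjusted p was given (DESeq2 gave none to 4 of the 9 tested genes), and the lowest adjusted p was 0.395 (edgeR, without control replicate 2). Their median log2 fold change ran from 0.02 to 0.07 over the alternatives and from 0.03 to 0.05 with a library left out. The sign of 8 of the 9 tested genes held in every alternative that gave the gene a value (Hspa1a and Hspa1b have none of their own when summed), and the exception was Hsph1 (0.075 with the length correction), as was Hsf2 among the partners (0.056). Scaling by library size alone brought Hspa1b to 0.055, Hsp90aa1 to 0.016, Hsph1 to -0.043, Hsp90ab1 to -0.068 and Hspd1 to -0.058. With a library left out, 5 of the 9 kept their sign. The log2 fold change ran from -0.14 to 0.11 for Hsph1, from -0.11 to 0.044 for Hsp90ab1, from -0.088 to 0.053 for Hspd1 and from -0.12 to 0.34 for Hspe1, and stayed on one side of zero for Hspa1a (-0.28 to -0.0065), Hspa1b (0.03 to 0.15), Dnajb1 (0.10 to 0.19), Hsp90aa1 (0.01 to 0.09) and Hspa8 (0.04 to 0.17). Among the partners it ran from -0.18 to 0.079 for Hsf2, from -0.021 to 0.13 for Dnaja1 and from -0.12 to 0.057 for Hspa9. The called genes over all tested genes, 22 as reported, were 0 without a filter (edgeR, 27490 genes, 1795 at an unadjusted p under 0.05), 151 with library size only, 11 with upper-quartile scaling, 68 with DESeq2, 63 with robust estimation and 5 with the length correction, and from 93 to 540 with a library left out (118 without control replicate 1, 540 without control replicate 2, 93 without EGCG replicate 1 and 196 without EGCG replicate 2). The cause was not tested. Among the 93 other chaperone genes, 1 (Hyou1) was called with library size only, and from 0 to 1 with a library left out. A replicate block gave 30 called genes and 0 called heat shock chaperones; same-numbered libraries deviated with a correlation of 0.0336 over 14682 genes, so the number is not known to pair them. Counts were lowest for Hspb1, Hspa1a and Hspa1b, and how far depth or unassigned reads from shared sequence account for this was not tested.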

Other observations

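Several processed pseudogenes of the heat shock chaperone genes, which are copies of their RNA inserted elsewhere in the genome, had counts of their own. Gm12346 had 849 and 850 counts with control medium against 954 and 850 with EGCG, beside 1891, 1851, 1998 and 1865 counts of Hsp90aa1 itself. It ranked first in matches to the 31-base words of Hsp90aa1, added up over the transcripts of each gene. Gm12346 and Hsp90aa1 both stood highest in EGCG replicate 1. Gm8355, similar to Hspa8, had 783, 768, 754 and 759 counts in the same order of libraries, and Hspd1-ps3, similar to Hspd1, had 185, 172, 168 and 193. Whether these reads came from the pseudogenes or from their parent genes was not tested. In an alternative chosen after seeing the data, counts of pseudogenes were added to their parent genes. Only pseudogenes among the leading genes in words shared with a parent were added. More genes share words with these parents (22 with Hsp90aa1, 20 with Hspa8 and 20 with Hspd1). The log2 fold change was then 0.06 for Hsp90aa1, 0.08 for Hspa8, -0.01 for Hspd1 and 0.14 for Hspe1, and 0 of the 9 tested genes were called by edgeR (lowest adjusted p = 0.530).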
